A study of Mus musculus with 12 samples.

Results

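Of the 40481 genes in the deposited expression table of cultured mouse hematopoietic stem cells (HSCs), 50 were genes of mitosis and of the G2/M transition that precedes it. They were taken by gene symbol from a list of genes for chromosome condensation, spindle assembly, chromosome attachment, anaphase and cytokinesis, with 1 entry per Ensembl identifier. All 50 passed the filter on low values, which asked for at least 1 CPM (a read count scaled to the total reads of the library) in at least 3 of the 12 libraries. By general knowledge of their products they were divided into 10 roles, and 17 were listed as substrates of the anaphase-promoting complex (APC/C).

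The libraries formed 4 groups of 3: HSCs of wild type (WT) mice and of mice with a doxycycline-inducible ETV6-RUNX1 fusion (iE/R), each sorted from either E14.5 (embryonic day) fetal liver or the bone marrow of mice aged 8 weeks. ETV6-RUNX1 joins a pair of hematopoietic transcription factors and is found in childhood B-cell leukemia. All cells, the WT cells included, were cultured under HSC expansion conditions for 3 days, with doxycycline at 1 µg/mL, before RNA was taken, so that the genotypes differed in the fusion and not in the agent. The promoter that drives the fusion, the mouse strain and the number and sex of the animals per library are not given in the sources used here. The labels also do not say that replicates came from separate animals or cultures, so the p-values measure only the spread between these libraries.

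As background, cells enter mitosis when cyclin B and the kinase CDK1 become active, and leave it when the APC/C, with its activator CDC20, marks cyclin B and other mitotic proteins for degradation. Transcription of most of these genes peaks in G2 and M phase. In resting cells it is held down by the DREAM complex, and in cycling cells it is driven by a complex of MYB proteins with the same DNA-binding core and by FOXM1. That core binds a short promoter element called CHR, often near CCAAT boxes bound by NF-Y. Most adult HSCs rest in bone marrow, whereas fetal liver HSCs divide.

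Fold changes are differences of group means of log2(CPM + 1), given with their standard error (SE), and a gene is said to have risen or fallen where the limma p, adjusted by Benjamini-Hochberg over all 14271 genes that passed the filter, was under 0.05. The libraries held 32.3 to 64.5 M reads, and 3 reads, taken as the floor, equalled 0.0465 to 0.0928 CPM. Floors cover counting error only, because the reads carry no molecular identifiers. Runx1, a partner in the fusion, was at 110.4 to 136 CPM in WT and 218 to 244 CPM in ETV6-RUNX1 fetal liver, and at 86.7 to 105 and 143 to 194 CPM in bone marrow, in the direction of the labels; reads of the fusion were not separated from those of the mouse gene. All 15 genes listed as HSC markers were detected in every group, with Ly6a, Hlf, Mecom and Mllt3 among them. The list also holds Cd48, Flt3 and Ptprc, which are not particular to HSCs, so its detection does not establish the identity of the cells. No lymphoid marker passed the filter. WT bone marrow replicate 1 stood apart from its replicates: it differed from them by a chi-square per degree of freedom of 163 and 171, against 30.7 to 91.4 for the other pairs of replicates. It also held the most S100a8 (49.4 CPM) and Elane (17.3 CPM), genes of granulocytes. Where it changed a bone marrow fold change given here for a member by over 1.5 times, or across the threshold, the value is given with and without it. The sources also differed in Xist, the RNA that coats an inactive X chromosome: it was at 51.7 to 89.3 CPM in the 6 fetal liver libraries and 0.175 to 1.27 CPM in the 6 bone marrow libraries.

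The promoters show what most of these genes share. RefSeq promoters on GRCm38.p6, from 250 bases before to 50 after the start site, were found for 44 of the 50 genes (49 promoters). A CHR element, searched as TTTGAA or TTCGAA on both strands, was in 73.5% of them, against 14.0% of the promoters of the other genes tested and 19.2% of all 32851 promoters of this length. CCAAT on either strand was in 75.5% against 37.7% of those of the other genes tested and 37.4% of all, and both elements stood together in 61.2% against 5.65% and 7.52%. The same letters were common in promoters of other mitotic genes, with CHR in 65.5%, CCAAT in 67.2% and both in 48.3%. An E2F site (TTTCCCGC, TTTCGCGC, TTTGCCGC or TTTGGCGC, both strands) was in 6.12% against 3.93% and 2.26%. A match of letters is a description and not a bound site.

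The 250 bases before the start site are printed, 5′ to 3′ on the coding strand, for 4 genes with lower RNA in ETV6-RUNX1 fetal liver and for 2 (Ckap5 and Kif11) whose difference there was close to 0. Capitals mark CHR, CCAAT and E2F matches on either strand, and a match that runs past the start site is shown up to it. Cdk1 (chr10:69352913-69353162, minus strand) held CHR matches 71 and 15 bases before the start, 3 CCAAT boxes and the E2F match. Cdc20 (chr4:118437344-118437593, minus strand) held a CHR match 18 bases before it, with a CCAAT box on each side. The regions of the others are chr9:70421555-70421804 (minus strand) for Ccnb2, chr2:129297213-129297462 (minus strand) for Ckap2l, chr2:91526512-91526761 (plus strand) for Ckap5 and chr19:37376132-37376381 (plus strand) for Kif11. Ube2c, described below but not printed, had a CHR match 29 bases before its start.
Cdk1: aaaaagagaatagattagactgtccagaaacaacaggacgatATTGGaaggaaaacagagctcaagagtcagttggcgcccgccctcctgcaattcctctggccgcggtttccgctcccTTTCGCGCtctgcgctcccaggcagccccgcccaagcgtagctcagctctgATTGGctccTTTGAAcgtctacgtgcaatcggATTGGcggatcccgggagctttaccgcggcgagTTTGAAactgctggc
Ccnb2: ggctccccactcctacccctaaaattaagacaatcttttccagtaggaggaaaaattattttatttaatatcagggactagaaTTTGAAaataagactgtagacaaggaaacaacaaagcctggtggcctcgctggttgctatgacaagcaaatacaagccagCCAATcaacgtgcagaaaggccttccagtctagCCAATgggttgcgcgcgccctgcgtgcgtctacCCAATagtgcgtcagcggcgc
Cdc20: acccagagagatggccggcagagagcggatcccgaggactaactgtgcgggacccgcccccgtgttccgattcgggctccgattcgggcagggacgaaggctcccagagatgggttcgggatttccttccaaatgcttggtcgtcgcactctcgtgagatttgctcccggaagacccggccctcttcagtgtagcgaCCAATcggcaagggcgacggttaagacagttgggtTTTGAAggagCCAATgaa
Ckap2l: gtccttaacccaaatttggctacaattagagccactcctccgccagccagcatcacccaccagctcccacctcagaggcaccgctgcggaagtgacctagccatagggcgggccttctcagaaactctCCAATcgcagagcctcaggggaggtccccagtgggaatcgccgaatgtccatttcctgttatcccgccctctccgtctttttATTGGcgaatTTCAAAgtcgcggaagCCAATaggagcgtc
Ckap5: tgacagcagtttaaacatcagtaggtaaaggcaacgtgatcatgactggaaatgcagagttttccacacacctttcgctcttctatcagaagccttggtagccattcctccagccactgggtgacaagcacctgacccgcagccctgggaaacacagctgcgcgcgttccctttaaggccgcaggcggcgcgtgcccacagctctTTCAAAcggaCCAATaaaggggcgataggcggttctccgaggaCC
Kif11: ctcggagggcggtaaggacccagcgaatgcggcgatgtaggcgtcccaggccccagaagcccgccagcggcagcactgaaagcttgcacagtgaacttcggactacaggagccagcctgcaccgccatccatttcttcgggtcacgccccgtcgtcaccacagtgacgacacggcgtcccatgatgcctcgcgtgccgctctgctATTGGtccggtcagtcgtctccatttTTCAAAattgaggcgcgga

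The printed promoters of Ckap5 and Kif11 carry CHR and CCAAT matches, as the other 4 do, and of the 6 only that of Cdk1 has an E2F match. Over all members, 33 of 49 CHR matches began within 50 bases of the start site, at a median of -19, and the 99 CCAAT matches had a median of -68. Some genes have overlapping promoters, so these are 46 distinct CHR and 94 distinct CCAAT positions in the genome. CHR was in 22 of 32 promoters (68.8%) of genes that fell in ETV6-RUNX1 fetal liver and in 14 of 17 promoters (82.4%) of the other members. The median log2 fold change in fetal liver was -0.59 for the 34 genes with a CHR match and -0.54 for the 10 without. A CHR match was thus at least as frequent among promoters of members that did not pass the test.

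**Figure D1:**
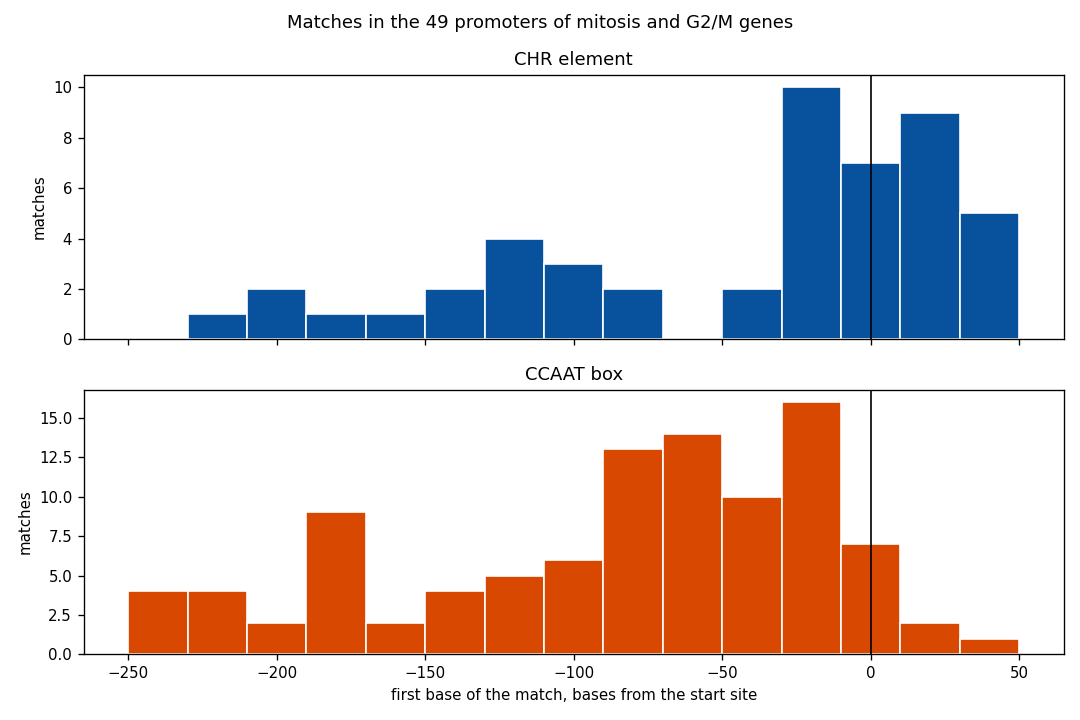
Start of each CHR match (top) and CCAAT match (bottom) in the 49 promoters, in bases from the start site (line at 0), with the number of matches per bin of 20 bases. CHR matches gather near the start site (33 of 49 within 50 bases), and CCAAT matches lie farther before it (median -68).

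Within fetal liver, the question was how the fusion changed these genes in fetal HSCs. With ETV6-RUNX1, 34 of the 50 genes fell and 0 rose (limma adjusted p under 0.05), beside 18.3% of all tested genes that were called lower and 24.8% that were called higher. The 0 stood at an unadjusted p under 0.05 and with edgeR and DESeq2 as well. Together the 50 genes took 0.845% to 0.956% of the reads in WT fetal liver and 0.526% to 0.613% in ETV6-RUNX1, ranges that do not touch. Under quantile normalization, which moved the median of all genes to -0.10 and the share of all calls that were higher from 57.6% to 42.0%, 38 members fell beside 26.2% of all tested genes. The median log2 fold change was -0.58 (all tested genes, 0.08), and the members ran from -1.59 for Ckap2l to 0.58 for Ect2. In bulk RNA, fewer cells in G2 and M phase and less of these RNAs per cell cannot be told apart. The 34 genes with a call were also the 34 whose ETV6-RUNX1 libraries all lay below all WT libraries, a pattern shown by 23.3% of tested genes.

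**Figure D2:**
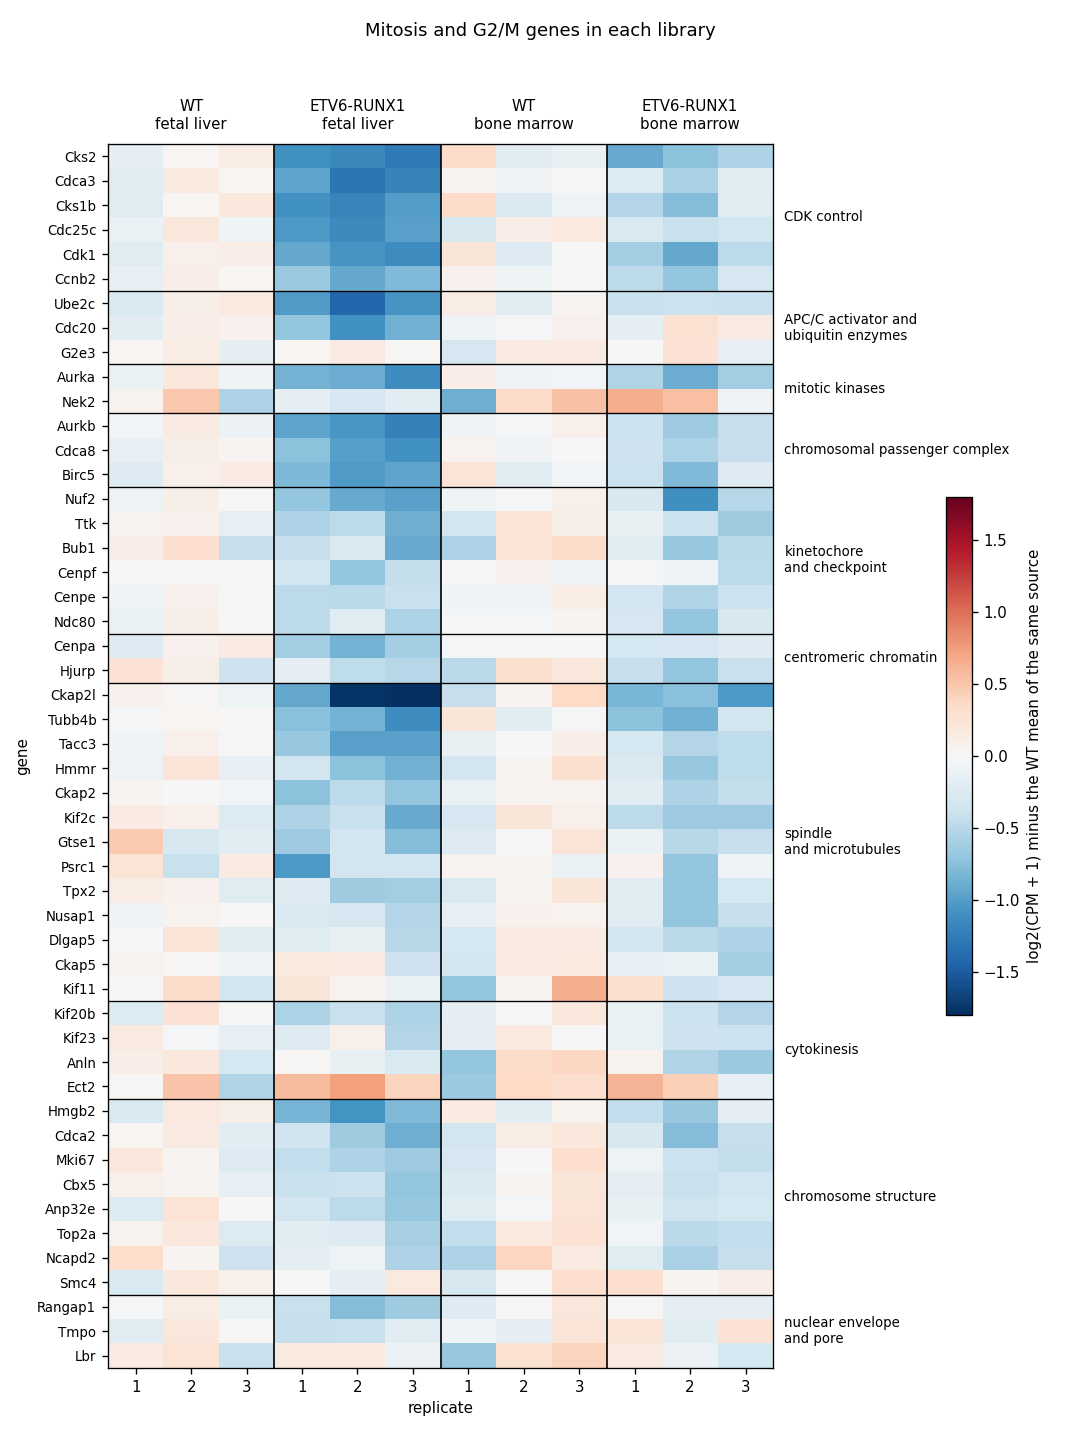
Each of the 50 genes (lines, by role) in each of the 12 libraries (columns): log2(CPM + 1) minus the mean of the WT libraries of the same source, blue for lower and red for higher. The ETV6-RUNX1 fetal liver columns are blue for most genes, with the deepest values for Ckap2l and for CDK control, while Ect2 is red there and Kif11, Lbr and G2e3 are near white.

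The 6 genes that control CDK1 all fell in fetal liver, with a median log2 fold change of -1.07. Cdk1 (ENSMUSG00000019942, chromosome 10, 69335146 to 69352938), the kinase that starts mitosis, was at 246, 305 and 311 CPM in the WT libraries and at 150.0, 136 and 129.7 CPM in ETV6-RUNX1. The ETV6-RUNX1 mean of 139 ± 10.4 CPM lay 51.7% below the WT mean of 287 ± 36.1 CPM (SD, n = 3), and the groups were far apart (-1.04 ± 0.15 SE, limma adjusted p 0.000106). Ccnb2 (ENSMUSG00000032218, chromosome 9, 70407692 to 70421547) encodes cyclin B2, a partner of CDK1, and went from 195, 234 and 222 CPM to 135, 113 and 124 CPM (-0.80 ± 0.13 SE, limma adjusted p 0.000268). Its lowest WT library was well above its highest ETV6-RUNX1 library.

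Cks2, a small subunit that docks on CDK1, was at 169.8, 197 and 212 CPM in WT and 89.9, 85.7 and 78.6 CPM in ETV6-RUNX1 fetal liver (-1.17 ± 0.16 SE, limma adjusted p 4.39e-05). Cdca3, which helps to trigger mitotic entry by way of WEE1 degradation, was at 118, 153 and 139 and 69.6, 54.4 and 58.7 CPM (-1.15 ± 0.15 SE, limma adjusted p 3.2e-05). In both genes the highest ETV6-RUNX1 library lay far below the lowest WT library. The other CDK1 subunit gene Cks1b (-1.09) and Cdc25c (-1.05), the phosphatase that activates CDK1, fell by similar amounts on the log2 scale.

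Of the APC/C activator and ubiquitin enzymes, 2 of 3 fell. Ube2c (ENSMUSG00000001403, chromosome 2, 164769898 to 164778822), the enzyme that hands ubiquitin to the APC/C, was at 203, 263 and 278 CPM in WT and 121, 91.5 and 117 CPM in ETV6-RUNX1 fetal liver (-1.17 ± 0.15 SE, limma adjusted p 3.31e-05). Cdc20 (ENSMUSG00000006398, chromosome 4, 118432901 to 118437352), the activator of the APC/C in metaphase, was at 73.1, 91.2 and 88.1 and 50.9, 38.7 and 45.5 CPM (-0.89 ± 0.15 SE, limma adjusted p 0.000365). For both genes the groups did not overlap. G2e3, a ubiquitin ligase with a peak in G2, had a log2 fold change of 0.07 and did not pass the test. Part of the Ube2c exons (22.8% of their bases) overlaps Tnnc2 on the opposite strand, and whether strand was used in counting is not given in the sources used here. The other members with such an overlap included Cdc25c (12.7%), Tacc3 (8.14%), Ckap2l (5.77%), Nusap1 (4.24%), Cdc20 (2.84%) and Rangap1 (1.34%).

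The Aurora kinases and the chromosomal passenger complex, which corrects chromosome attachment and guides cytokinesis, fell as well. Aurka, the kinase of centrosomes and spindle poles, was at 145, 180.4 and 152 CPM in WT and 87.3, 84.9 and 72.7 CPM in ETV6-RUNX1 fetal liver (-0.95 ± 0.14 SE, limma adjusted p 9.64e-05). Aurkb, the kinase of the passenger complex, was at 162, 186 and 156 and 85.9, 80.3 and 71.4 CPM (-1.08 ± 0.13 SE, limma adjusted p 1.48e-05). No library of one genotype reached into the range of the other for either gene. The other passenger genes Birc5 (survivin, -0.92) and Cdca8 (borealin, -0.94) fell on the same scale, so that all 3 of this complex passed the test. Nek2, a centrosome kinase, did not: it ranged from 14.7 to 31.3 CPM in WT and from 17.6 to 19.7 CPM in ETV6-RUNX1 fetal liver.

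At the kinetochore, where microtubules hold chromosomes, 5 of 6 genes fell with a median log2 fold change of -0.51. Nuf2, a subunit of the NDC80 complex that grips microtubules, was at 69.1, 79.8 and 73.3 CPM in WT and 45.3, 39.0 and 37.1 CPM in ETV6-RUNX1 fetal liver (-0.86 ± 0.18 SE, limma adjusted p 0.0015). Cenpe, a kinesin that carries chromosomes to the spindle equator, was at 131, 145 and 138 and 98.8, 97.7 and 104 CPM (-0.45 ± 0.11 SE, limma adjusted p 0.00539). Cenpe thus fell by less than Nuf2 on the log2 scale, yet its libraries were close together and its groups apart. Ttk (-0.64), Cenpf (-0.49) and Ndc80 (-0.42) fell, and the checkpoint kinase gene Bub1 was at -0.53 (limma adjusted p 0.102). In centromeric chromatin, Cenpa, the centromere form of histone H3, went from 119.8, 148 and 156 to 90.2, 77.3 and 91.4 CPM (-0.70 ± 0.13 SE, limma adjusted p 0.000539). Its loading factor Hjurp was at -0.38 and missed the threshold (limma adjusted p 0.155).

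Spindle and microtubule genes formed the most numerous role, and 9 of 13 fell (median -0.59). Ckap2l (ENSMUSG00000048327, chromosome 2, 129268210 to 129297212), a spindle protein of mitotic cells, had the lowest fold change of all members: it was at 328, 314 and 292 CPM in WT and 164, 90.5 and 72.8 CPM in ETV6-RUNX1 fetal liver (-1.59 ± 0.25 SE, limma adjusted p 0.000166). The ETV6-RUNX1 libraries differed among themselves by more than 2-fold, but all 3 lay far under the WT libraries. Tacc3, which stabilises spindle microtubules with Ckap5, was at 176, 199 and 184 and 115, 93.9 and 93.8 CPM (-0.88 ± 0.13 SE, limma adjusted p 8.6e-05). Ckap5, its microtubule polymerase partner, showed no such pattern, with 117, 113 and 105 CPM in WT and 126, 125 and 86.3 CPM in ETV6-RUNX1 fetal liver (-0.01 ± 0.19 SE, limma adjusted p 0.967). Kif11, the kinesin that pushes spindle poles apart, had a log2 fold change of 0.06, and Dlgap5 (-0.29) and Psrc1 (-0.57) also missed the threshold. Tubb4b (-0.90), a beta tubulin, fell, but its reads may be shared with near-identical tubulin genes and its value is uncertain.

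Cytokinesis genes were the role with the fewest calls for its size, 1 of 4. Kif20b, a kinesin of the midzone, was at 102, 146 and 121 CPM in WT and 81.6, 91.9 and 81.5 CPM in ETV6-RUNX1 fetal liver (-0.52 ± 0.16 SE, limma adjusted p 0.0157). Ect2, which activates RhoA for the cleavage furrow, lay in the other direction, at 20.5, 29.2 and 13.6 and 30.5, 34.4 and 27.1 CPM (0.58 ± 0.30 SE, limma adjusted p 0.137). Its WT values spread over more than 2-fold, 1 WT library lay within the ETV6-RUNX1 range, and the difference did not pass the test. Anln, a scaffold of the furrow (-0.13), and Kif23, the kinesin of centralspindlin (-0.22), did not pass either.

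Among 8 genes of chromosome structure, 5 fell (median -0.49). Hmgb2, an abundant chromatin protein, was at 745, 1018 and 975 CPM in WT and 506, 429 and 523 CPM in ETV6-RUNX1 fetal liver (-0.90 ± 0.16 SE, limma adjusted p 0.000613). Cbx5, a heterochromatin protein, was at 282, 275 and 238 and 199.7, 201 and 163 CPM (-0.49 ± 0.14 SE, limma adjusted p 0.0131). Mki67, which coats mitotic chromosomes and is widely used as a proliferation marker, was at 133, 119.9 and 98.9 and 85.2, 79.0 and 73.2 CPM (-0.55 ± 0.17 SE, limma adjusted p 0.015). All 3 genes had groups that did not overlap.

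Top2a, the topoisomerase that untangles sister chromatids, is a marker of cycling cells too, but its difference did not pass: it was at 497, 541 and 400.2 CPM in WT and 414, 405 and 314 CPM in ETV6-RUNX1 fetal liver (-0.34 ± 0.19 SE, limma adjusted p 0.171). The highest ETV6-RUNX1 values lay inside the WT range. Smc4, a condensin subunit, was at 173, 239 and 223 and 208, 188 and 237 CPM, the value closest to no difference among the members (0.00 ± 0.17 SE, limma adjusted p 0.996). The condensin gene Ncapd2 (-0.27) missed the threshold. In the nuclear envelope role, Rangap1, which drives nuclear transport at the pore and binds kinetochores in mitosis, was at 166, 186 and 156 and 128, 97.6 and 108 CPM and fell (-0.61 ± 0.14 SE, limma adjusted p 0.0037). The envelope proteins Tmpo (-0.33) and Lbr (0.08) had no call.

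**Figure D3:**
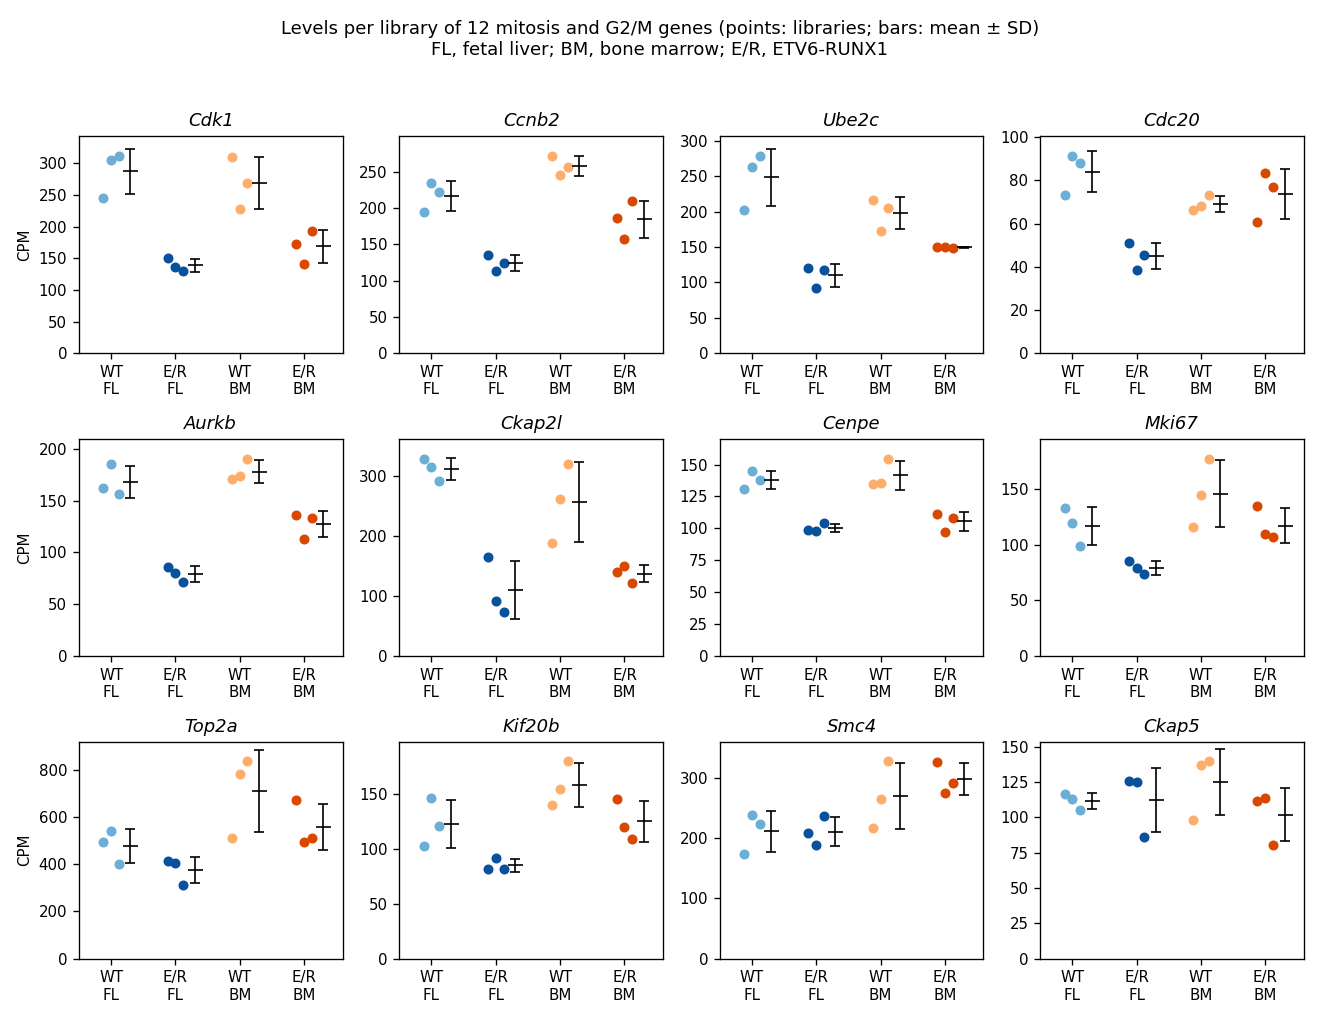
CPM of 12 of the genes in each library (points), with mean ± SD (n = 3) beside them, for WT and ETV6-RUNX1 (E/R) in fetal liver (FL) and bone marrow (BM). In Cdk1, Ccnb2, Aurkb and Ckap2l the E/R points lie under the WT points in both sources, in Cdc20 they do so in fetal liver and not in bone marrow, and in Smc4 and Ckap5 the groups overlap.

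Of the 17 APC/C substrates, 13 fell in fetal liver (median -0.64), and of the other 33 members 21 fell (median -0.55). Of all tested genes 18.3% fell there (median 0.08). The difference between the substrates and the other members was not tested. By level per kilobase of exon, averaged over the 12 libraries, Hmgb2 was highest at 259.8 CPM per kb and Anln lowest at 4.04 CPM per kb. The most abundant members per kilobase after Hmgb2 were Tubb4b, Cks2 and Cks1b. Of the 34 falls in fetal liver, 22 held under all 22 alternatives, among them all 6 CDK control genes, all 3 passenger genes, Ube2c, Cdc20 and Ckap2l. The count of falls ran from 24 to 38 over the alternatives, while 7.76% to 26.2% of all tested genes were called lower. The 24 was reached without ETV6-RUNX1 fetal liver replicate 3, beside 16.2% of all tested genes.

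In adult bone marrow the same comparison gave fewer calls. There 13 of the 50 genes fell and 0 rose, beside 4.93% of all tested genes called lower and 14.4% called higher, and the count of 0 was the same at an unadjusted p under 0.05 and with edgeR and DESeq2. The median log2 fold change was -0.40 (all tested genes, 0.13), with values from -0.87 for Ckap2l to 0.38 for Nek2, and 44 of the 50 values were negative. Without WT bone marrow replicate 1 the value of Nek2 was -0.06 (limma adjusted p 0.904). The share of reads taken by the 50 genes was 0.896% to 1.08% in WT and 0.682% to 0.819% in ETV6-RUNX1 bone marrow. In 20 genes the ETV6-RUNX1 libraries all lay below the WT libraries, against 10.9% of tested genes.

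This count rested on the scaling and on single libraries. It was 31 of 50 with median-of-ratios scaling, when 9.20% of all genes were called lower, 31 with edgeR on the recovered reads (9.49%) and 34 with DESeq2 (11.1%). The median of all genes in bone marrow went from 0.13 to 0.01 under median-of-ratios scaling, and the share of calls that were higher went from 74.5% to 53.0%. Without WT bone marrow replicate 1, the library that stood apart, 22 genes fell, beside 4.37% of all tested genes. Leaving out WT bone marrow replicate 3 left 6 falls, beside 3.19% of all tested genes, and leaving out ETV6-RUNX1 bone marrow replicate 2 left 3 (Cdk1, Aurka and Cks2), beside 2.24%. Under all alternatives 3 genes held their call.

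By role, the genes that fell in bone marrow with limma were 3 of 6 of CDK control, Aurka, 2 of 3 of the passenger complex, 2 of 6 kinetochore genes and 5 of 13 spindle genes. Cdk1 was at 309.8, 228 and 269.6 CPM in WT and 173, 141 and 193 CPM in ETV6-RUNX1 bone marrow, with no overlap (-0.67 ± 0.15 SE, limma adjusted p 0.0088). Cks2 was at 200.3, 139 and 144 and 84.0, 94.7 and 107 CPM (-0.74 ± 0.16 SE, limma adjusted p 0.00575). Aurka was at 143, 125 and 126 and 90.3, 70.0 and 85.0 CPM (-0.69 ± 0.14 SE, limma adjusted p 0.00462). These were the 3 genes that fell under every alternative. Ccnb2 was at 272, 245 and 257 CPM in WT and 186, 158 and 209 CPM in ETV6-RUNX1 (-0.49 ± 0.13 SE, limma adjusted p 0.0194).

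Ckap2l again had the lowest fold change of the members, at 188, 261 and 320.0 CPM in WT and 140.4, 149 and 121 CPM in ETV6-RUNX1 bone marrow (-0.87 ± 0.25 SE, limma adjusted p 0.0247). Its WT values were spread widely, with replicate 1 lowest, but every one lay above the ETV6-RUNX1 libraries. Aurkb was at 170.4, 174 and 190.4 and 136, 113 and 134 CPM (-0.48 ± 0.13 SE, limma adjusted p 0.0174). Nuf2 was at 92.0, 95.4 and 104 and 78.8, 44.7 and 67.7 CPM (-0.63 ± 0.18 SE, limma adjusted p 0.0238), and 1 of its ETV6-RUNX1 libraries lay far below the others. Neither gene had overlapping groups. Cenpe was at 134, 136 and 154 and 111, 97.2 and 108 CPM (-0.42 ± 0.11 SE, limma adjusted p 0.02), and its change in fetal liver was -0.45. Tacc3 was at 163, 180.0 and 194 and 144, 124 and 129.8 CPM (-0.43 ± 0.13 SE, limma adjusted p 0.0286). The other falls were those of Cdca8 (-0.45), Kif2c (-0.59), a kinesin that takes microtubules apart, Nusap1 (-0.45) and Tubb4b (-0.65). Of these, Cdca8 lost its call without WT replicate 1 (-0.42, limma adjusted p 0.0517).

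The remaining genes did not pass in bone marrow at the deposited scaling. Of the APC/C enzymes, the centromeric chromatin, the cytokinesis, the chromosome structure and the nuclear envelope genes, 0 had a call with limma. At an unadjusted p under 0.05 these roles held 1, 2, 1, 2 and 0 lower genes, edgeR called 1, 2, 1, 4 and 0, and DESeq2 called 1, 2, 1, 6 and 0. Mki67 was at 116, 144 and 177 CPM in WT and 135, 109.5 and 107 CPM in ETV6-RUNX1 (-0.30 ± 0.17 SE, limma adjusted p 0.216). Top2a was at 514, 785 and 837 and 672, 496 and 512 CPM (-0.33 ± 0.19 SE, limma adjusted p 0.25). In both proliferation markers WT replicate 1 was the lowest WT library and lay within the ETV6-RUNX1 range. Without it the value was -0.55 for Top2a, which then fell (limma adjusted p 0.0481), and -0.45 for Mki67, which did not pass (limma adjusted p 0.0694).

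Cenpa was at 140.0, 143 and 141 CPM in WT and 114, 115 and 120.4 CPM in ETV6-RUNX1 bone marrow (-0.28 ± 0.13 SE, limma adjusted p 0.131). Its groups were apart although the test did not pass. Hmgb2 was at 1081, 847 and 1029 and 724, 609.8 and 876 CPM (-0.43 ± 0.16 SE, limma adjusted p 0.0827), Cbx5 at 219, 270.1 and 304 and 235, 198 and 207 CPM (-0.30 ± 0.14 SE, limma adjusted p 0.159). Kif20b was at 140.5, 155 and 179.8 and 145, 120.3 and 109.5 CPM (-0.34 ± 0.16 SE, limma adjusted p 0.137). These 3 genes had overlapping groups.

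Ect2, Smc4, Ckap5 and Rangap1 also had overlapping groups in bone marrow. Ect2 was at 15.1, 31.6 and 30.3 and 37.7, 33.4 and 21.8 CPM (0.30 ± 0.30 SE, limma adjusted p 0.517), and Smc4 at 218, 266 and 328 and 328, 276 and 291 CPM (0.16 ± 0.17 SE, limma adjusted p 0.535). Both values were positive, but without WT replicate 1 that of Ect2 was -0.03 and that of Smc4 0.01. Ckap5 was at 98.0, 137 and 139.7 and 112, 114 and 80.7 CPM (-0.29 ± 0.19 SE, limma adjusted p 0.29). Rangap1, which fell in fetal liver, was at 133, 159 and 179 and 158, 137 and 139 CPM (-0.11 ± 0.14 SE, limma adjusted p 0.626). Without WT replicate 1 the values were -0.45 for Ckap5 (limma adjusted p 0.106) and -0.22 for Rangap1 (limma adjusted p 0.305), and neither passed.

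Set side by side, most members had negative values in both sources. The 13 genes that fell in bone marrow all fell in fetal liver too, and they were 38.2% of the fetal liver falls. A further 21 genes passed in fetal liver and not in bone marrow, and 16 passed in neither. These counts hold at the deposited scaling, and with edgeR 37 members fell in fetal liver and 31 in bone marrow, beside 21.2% and 9.49% of all tested genes. Values were negative in both sources for 42 genes, and 38 had the more negative value in fetal liver. Across the 50 genes the fold changes of the sources had a Pearson r of 0.67 (Spearman rho 0.61); these comparisons share no library, and genes are not independent replicates.

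**Figure D4:**
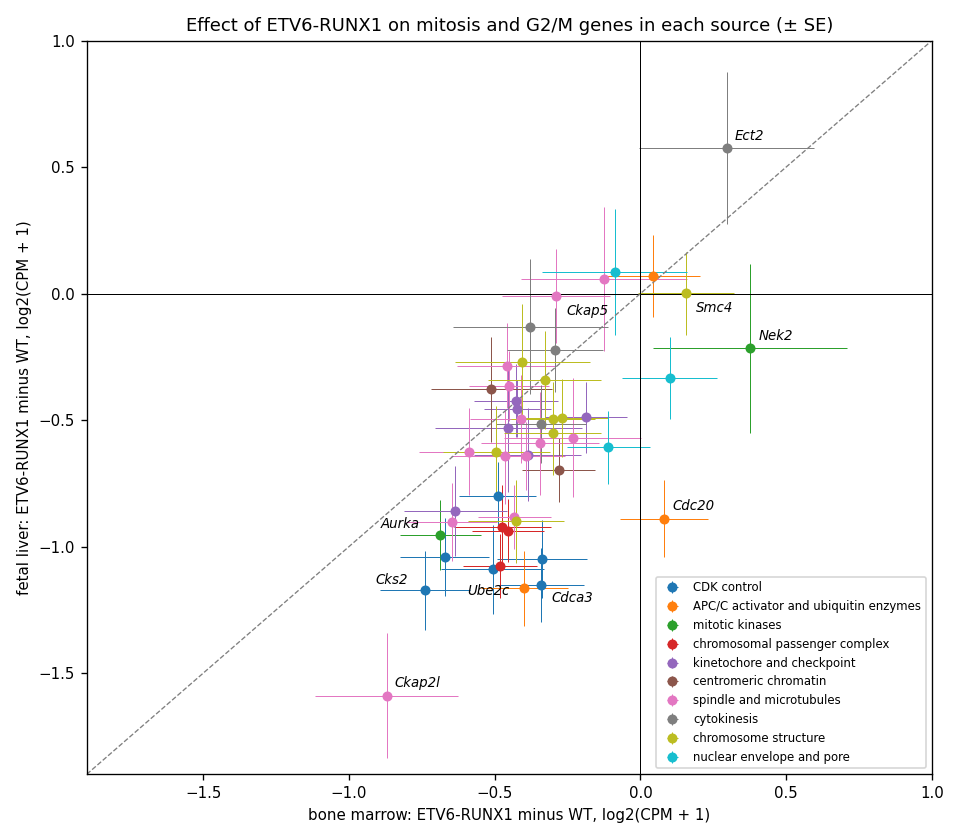
Log2 fold change of each of the 50 genes with ETV6-RUNX1 in bone marrow (horizontal) and fetal liver (vertical), ± SE, coloured by role, with the line of equal effect dashed. Most points (38) lie under the dashed line, and Cdc20 lies far under it, at 0.08 in bone marrow and -0.89 in fetal liver.

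Whether the effects differed between the sources was tested directly, as the fetal liver effect minus the bone marrow effect. In the data as deposited, 60.6% of all calls for this difference were higher, and 73.8% with median-of-ratios scaling. The median of this difference over the 50 genes was -0.25 (all tested genes, -0.05). Of all tested genes, 3.62% were called lower in fetal liver for this difference and 5.56% higher. The difference passed for 3 of the 50 members, all lower in fetal liver, a share near that background. These were Cdc20 (-0.97 ± 0.22 SE, limma adjusted p 0.0129), Cdca3 (-0.81 ± 0.21 SE, limma adjusted p 0.0261) and Ube2c (-0.77 ± 0.21 SE, limma adjusted p 0.0371). At an unadjusted p under 0.05 there were 10 lower and 0 higher members, with 0 higher in edgeR and DESeq2 too, so for most of the 21 genes with a call in fetal liver alone a difference between sources was not shown.

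Cdc20 kept its call most often. In bone marrow it was at 66.1, 67.9 and 73.1 CPM in WT and 61.0, 83.3 and 76.7 CPM in ETV6-RUNX1 (0.08 ± 0.15 SE, limma adjusted p 0.741), overlapping groups with no fall, against a mean 46.5% lower in fetal liver. Without WT bone marrow replicate 1 the bone marrow value of Cdc20 was 0.05 (limma adjusted p 0.868). Its difference between sources passed under all 21 alternatives. Cdca3 in bone marrow was at 128, 117 and 123 CPM in WT and 104, 81.2 and 108 CPM in ETV6-RUNX1 (-0.34 ± 0.15 SE, limma adjusted p 0.119), and Ube2c at 217, 173 and 205 and 149.7, 150.4 and 149 CPM (-0.40 ± 0.15 SE, limma adjusted p 0.0758). For these the bone marrow groups were apart, with a smaller gap than in fetal liver. The difference of Cdca3 passed under 12 of the 21 alternatives (limma, edgeR or DESeq2 adjusted p 0.0131 to 0.0779) and that of Ube2c under 8 (0.0174 to 0.102). Cdc20, Cdca3 and Ube2c are all listed as APC/C substrates, as are 17 of the 50 members, and the other listed substrates had no call. With edgeR the count of members that passed was 1 (Cdc20), beside 2.05% of all tested genes. With DESeq2 it was 3 (Cdc20, Cdca3 and Cdc25c), beside 4.22%, and without WT bone marrow replicate 1 it was 5, beside 7.18%. It was 1 when any of WT fetal liver replicates 2 and 3, ETV6-RUNX1 fetal liver replicate 2, WT bone marrow replicates 2 and 3 and ETV6-RUNX1 bone marrow replicates 1 and 3 was left out. Of all tested genes, 1.42% to 2.96% were then called lower.

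Fetal liver was then set against bone marrow within each genotype, comparisons that share libraries with those above. In WT cells 2 of the 50 genes were lower in fetal liver, Nusap1 (-0.46 ± 0.14 SE, limma adjusted p 0.0444), which bundles spindle microtubules, and Kif23 (-0.61 ± 0.17 SE, limma adjusted p 0.027), while 7.77% of tested genes were called lower and 3.38% higher. The median of the members was -0.17 (all tested genes, -0.07). At an unadjusted p under 0.05 there were 11 lower genes. The count depended on single libraries: without WT bone marrow replicate 1 it was 14 lower and 1 higher, the 1 being Cks2, beside 14.53% and 4.96% of all tested genes. It was 0 lower without replicate 2 or 3 of either WT group, beside 4.12% to 5.91% of all tested genes. It was 1 without WT fetal liver replicate 1, ETV6-RUNX1 fetal liver replicate 1 or 2, or ETV6-RUNX1 bone marrow replicate 3, beside 5.90% to 8.07%. Median-of-ratios scaling gave 1, beside 6.64% of all tested genes called lower, and moved the share of all calls that were higher from 30.3% to 40.7%. In ETV6-RUNX1 cells 23 genes were lower in fetal liver and 0 higher (0 also at an unadjusted p under 0.05 and with edgeR and DESeq2), beside 18.2% and 10.4% of tested genes; the median was -0.40 (all tested genes, -0.16).

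The 23 genes included Cdc20 (-0.70 ± 0.15 SE, limma adjusted p 0.00385), Aurkb (-0.68 ± 0.13 SE, limma adjusted p 0.0012), Cdca3 (-0.67), Tmpo (-0.68) and Ttk (-0.71). Of 8 chromosome structure genes, 6 were lower with limma, with Hmgb2 (-0.59), Top2a (-0.56), Mki67 (-0.56) and Smc4 (-0.50) among them, but 1 with edgeR and 1 with DESeq2. Aurka had a value near 0 (0.00 ± 0.14 SE, limma adjusted p 0.994). This count was 8 with median-of-ratios scaling or edgeR and 9 with DESeq2, with 10.4%, 9.56% and 11.6% of tested genes then called lower. The median of all genes here went from -0.16 to -0.01 under that scaling, and higher genes from 36.3% to 57.7% of all calls. The count of lower members dropped to 10, beside 12.1% of all tested genes, when ETV6-RUNX1 bone marrow replicate 1 was left out. It was 11 without ETV6-RUNX1 fetal liver replicate 2 (13.1%) and 13 without replicate 3 of either source (16.7% for fetal liver, 15.4% for bone marrow). In 25 genes all ETV6-RUNX1 fetal liver libraries lay below all ETV6-RUNX1 bone marrow libraries, a pattern shown by 27.8% of tested genes. The age, the tissue and the Xist level differ together between the sources and cannot be told apart.

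Other mitotic genes, from a list written from general knowledge, had more falls than rises too. Of 63 tested, 27 fell and 2 rose in ETV6-RUNX1 fetal liver (median -0.41), and 15 fell and 1 rose in bone marrow (median -0.28). Of all tested genes, 18.3% fell and 24.8% rose in fetal liver (median 0.08), and 4.93% and 14.4% in bone marrow (median 0.13). Plk1, the kinase that drives many steps of mitosis, was at 185, 205 and 191 CPM in WT and 90.8, 76.9 and 83.7 CPM in ETV6-RUNX1 fetal liver (-1.20 ± 0.12 SE, limma adjusted p 4.6e-06). Its groups were far apart, as were those of Pimreg (-1.20 ± 0.15 SE, limma adjusted p 3.26e-05) and of Cenpn (-1.05 ± 0.13 SE, limma adjusted p 2.23e-05), a centromere protein. The 2 that rose were Pttg1 (0.95 ± 0.17 SE, limma adjusted p 0.000615), which encodes securin, the inhibitor of separase, and Arhgap11a (0.67 ± 0.24 SE, limma adjusted p 0.0373). Pttg1 was at 52.0, 54.1 and 59.7 CPM in WT and 112, 89.6 and 124 CPM in ETV6-RUNX1, with no overlap; its protein is an APC/C substrate.

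In the difference between sources, 3 of these 63 genes passed (4.76%, against 3.62% of all tested genes), a share near the background, and they are named here after their values were seen: Plk1 (-0.92 ± 0.18 SE, limma adjusted p 0.00505), Troap (-0.79 ± 0.23 SE, limma adjusted p 0.0423) and Ube2s (-1.07 ± 0.30 SE, limma adjusted p 0.0418). Ube2s is the enzyme that extends ubiquitin chains on the APC/C after Ube2c starts them. It was lowly expressed, at 8.97, 12.5 and 10.4 CPM in WT and 5.55, 5.33 and 9.48 CPM in ETV6-RUNX1 fetal liver and 5.33, 5.28 and 6.70 and 8.05, 8.01 and 8.88 CPM in bone marrow. The gene that rose in bone marrow, also named after its value was seen, was Pkmyt1 (1.48 ± 0.39 SE, limma adjusted p 0.0175), which encodes a kinase that inhibits CDK1.

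Of 22 tested genes for proteins that bind or regulate these promoters, 3 fell and 2 rose in fetal liver (median 0.03), 13.6% and 9.09% of the list against 18.3% and 24.8% of all tested genes. Mybl2, the MYB protein that activates G2/M genes, was at 19.2, 15.5 and 14.7 CPM in WT and 7.88, 6.54 and 6.69 CPM in ETV6-RUNX1 (-1.11 ± 0.19 SE, limma adjusted p 0.000298). Tfdp1 (-0.87 ± 0.16 SE, limma adjusted p 0.000777), the partner of E2F proteins, and Nfyb (-0.49 ± 0.13 SE, limma adjusted p 0.00615), a subunit of NF-Y, also fell. Rb1 (1.02 ± 0.22 SE, limma adjusted p 0.00205), the retinoblastoma gene, and Rbl2 (0.83 ± 0.30 SE, limma adjusted p 0.0376), which encodes the p130 pocket protein of DREAM, rose. Rb1 was at 15.6, 10.9 and 13.9 CPM in WT and 32.7, 26.1 and 25.8 CPM in ETV6-RUNX1, with no overlap. Foxm1 was at 18.2, 17.1 and 15.0 and 13.6, 17.1 and 11.8 CPM and did not pass (-0.24 ± 0.20 SE, limma adjusted p 0.345).

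In bone marrow 2 of the 22 regulators fell, 9.09% of the list against 4.93% of all tested genes. They were Tfdp1 (-0.56 ± 0.16 SE, limma adjusted p 0.0278) and E2f8 (-0.77 ± 0.25 SE, limma adjusted p 0.0442), named after their values were seen. Of 47 S phase genes, a list that also holds E2f8, 25 fell in fetal liver (median -0.58), beside 18.3% of all tested genes. In bone marrow 16 of them fell and 1 rose (median -0.41), beside 4.93% and 14.4% of all tested genes. The medians of the S phase genes were thus close to those of the mitotic members in both sources. In their promoters CHR was in 18.4%, the E2F sites in 36.8% and CCAAT in 68.4%, against 73.5%, 6.12% and 75.5% in those of the mitotic members.

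The fall in fetal liver was larger for short genes. The exons of the members span 0.692 kb (Cks2) to 15.4 kb (Cenpf), with a median of 4.92 kb. Across the 50 genes the fetal liver fold change had a Pearson r of 0.59 with log10 exon length (rho 0.67), and across 14264 tested genes an r of 0.20. The 26 members of up to the median length had a median of -0.84 and 22 falls, and the 24 longer ones a median of -0.40 and 12 falls; this split was chosen after the values were seen. Over all tested genes the corresponding medians were -0.05 and 0.27. In bone marrow the r over members was 0.32 and over all tested genes 0.003. These points share libraries and are given without a p.

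**Figure D5:**
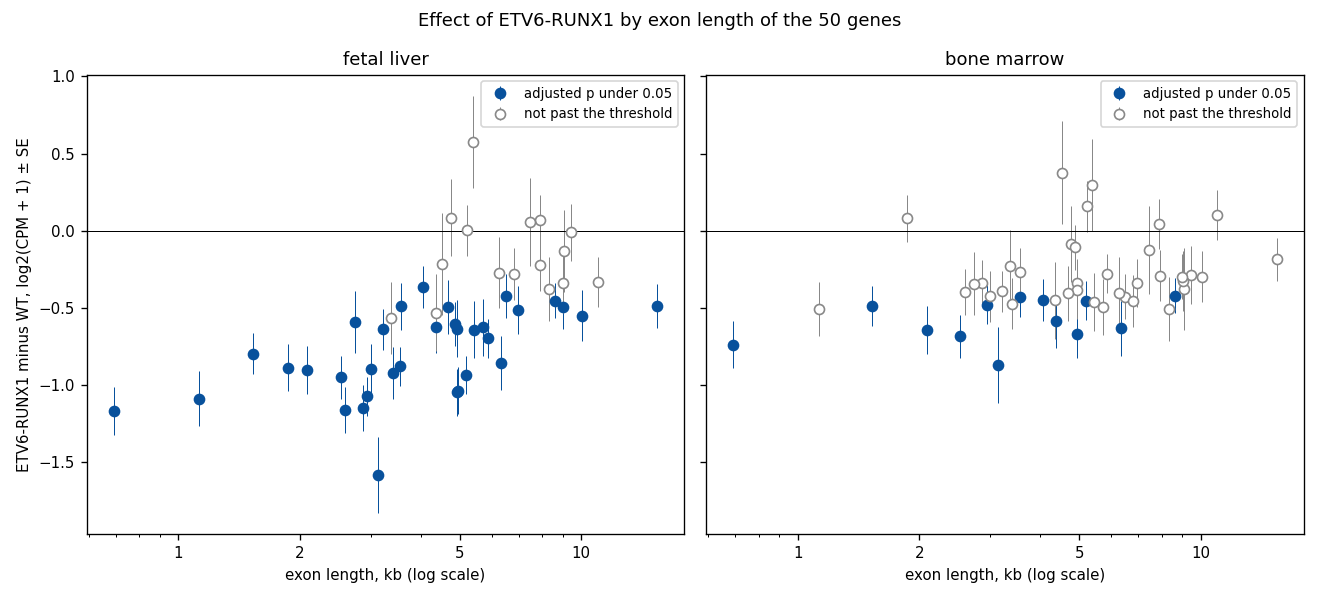
Log2 fold change with ETV6-RUNX1 (± SE) of each of the 50 genes against the length of its exons in kb (log scale), in fetal liver (left) and bone marrow (right); filled points passed the test. In fetal liver the genes under 3 kb all lie at -0.59 or lower while the values near 0 belong to longer genes, and the points slope less in bone marrow.

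The libraries differed in this respect as a whole. Genes above the members' median length, relative to shorter genes, lay at -0.28 to -0.02 on the log2 scale in WT and at 0.02 to 0.21 in ETV6-RUNX1 fetal liver, and at -0.22 to 0.13 and -0.09 to 0.08 in bone marrow. When the trend with length was taken out of each library, an alternative added after seeing the data, 38 members fell in fetal liver (33 of the 34, without Gtse1, and 5 more, Top2a among them) and 19 in bone marrow (all 13 and 6 more). Of all tested genes, 18.5% were then called lower in fetal liver and 6.33% in bone marrow. The difference between sources then passed for 4 genes, Cdc20, Cdca3, Ube2c and Cdc25c. 

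Genes listed as markers of other blood cells differed with the genotype as well. Of all tested genes, 24.8% rose and 18.3% fell in fetal liver, and 14.4% and 4.93% in bone marrow. In fetal liver 3 of 6 megakaryocyte markers rose and 1 fell, and their summed level was 3049 to 4501 CPM in WT and 7035 to 7647 CPM in ETV6-RUNX1. Pf4, a platelet chemokine named after its value was seen, made up much of this, at 2229.6, 2037 and 3149 CPM in WT and 4623, 4995 and 4829 CPM in ETV6-RUNX1. In bone marrow 1 of the 6 fell, and the sums were 1361 to 1813 CPM in WT and 464 to 2080 CPM in ETV6-RUNX1. The fetal liver groups were thus apart and the bone marrow groups overlapped.

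Of the 7 erythroid markers, 6 passed the filter and 5 of them rose in fetal liver, beside 24.8% of all tested genes. There the list summed to 774 to 1033 CPM in WT and 1524 to 2254 CPM in ETV6-RUNX1. In bone marrow the sums were 244 to 505 and 389 to 590.5 CPM, with 1 fall, beside 4.93% of all tested genes. The 505 CPM was that of WT bone marrow replicate 1, and without it the WT sums were 244 and 296 CPM, below those of ETV6-RUNX1. Car1, a carbonic anhydrase of red cells, was at or near 0 in all groups, with 0.186 CPM in its highest library. Granulocyte and monocyte markers had 2 falls and 1 rise among the 3 that passed the filter in fetal liver, beside 18.3% and 24.8% of all tested genes. Ctsg and S100a8 were at 0 in ETV6-RUNX1 fetal liver and at no more than 0.865 and 0.0649 CPM in WT fetal liver. The 8 of this list summed to 218 to 296 CPM in WT and 46.7 to 58.5 CPM in ETV6-RUNX1 fetal liver, and to 153 to 332 and 102 to 128 CPM in bone marrow. Without WT bone marrow replicate 1 the WT bone marrow sums were 153 and 216 CPM.

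The list of HSC markers held 15 genes, with Cd48, Flt3 and Ptprc among them, which are not particular to HSCs. Its counts and sums therefore do not separate HSC genes from genes of other blood cells. Of the 15 genes, 10 rose and 2 fell in fetal liver, where 24.8% of all tested genes rose and 18.3% fell. In bone marrow 7 of the 15 rose and 1 fell, against 14.4% and 4.93% of all tested genes. Their median log2 fold changes were 0.77 and 0.21, against 0.08 and 0.13 for all tested genes. Their sums were 2440 to 2944 CPM in WT and 5150 to 5418 CPM in ETV6-RUNX1 fetal liver, and 2739 to 3802 and 3879 to 4372 CPM in bone marrow. Of 7 endothelial and stromal markers, 4 passed the filter and 2 rose in fetal liver, where the sums were 88.1 to 109 and 161 to 191 CPM, while in bone marrow they were 87.6 to 108 and 107 to 116 CPM. Other cell types were at low levels. The 7 lymphoid markers summed to at most 2.04 CPM in any library, with Cd3e at 0 in all, and the 7 mast cell and basophil markers to at most 13.8 CPM, with Prss34 at 0 in all. The part of these cell types in the levels of the mitotic genes was not tested.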

How the data were processed

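RNA was measured in 12 libraries, 4 groups of 3, and the authors deposited 1 table of CPM values (reads scaled to the library's total) per gene. Per the labels' protocols, RNA was made into libraries with a stranded total RNA kit and sequenced in pairs. The submitters' processing notes name GRCm38, bcl2fastq, STAR 2.5.1a, Subread, featureCounts 1.4.6-p5, Salmon 0.8.2, edgeR and limma, with no role. The annotation release and the use of strand are not given in the sources used here.

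The table had 40757 lines, of which 276 repeated a gene identifier and were counted once, leaving 40481 genes. The smallest CPM value above 0 in each library was taken as 1 read. With that, 100% of values came out as whole reads (tolerance 0.01), so that total reads per library were recovered. The CPM values as deposited were tested as log2(CPM + 1) with limma 3.58.1 (R 4.3.3; trended prior variance, 4 group means, 8 residual degrees of freedom) over the 14271 genes that reached 1 CPM in 3 or more libraries. P-values were adjusted by Benjamini-Hochberg over all of them. Alternatives were median-of-ratios and quantile scaling, a pseudocount of 0.1, no filter, a mean of at least 5 CPM, edgeR 4.0.16 and DESeq2 1.42.0 on the recovered reads, the compared 6 libraries alone, a replicate block, each library left out, and, chosen after seeing the data, removal of the exon length trend. On the recovered reads edgeR called 6178 genes in fetal liver and 2739 in bone marrow, against 6151 and 2763 with limma. The method was tested on simulated data.

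The 50 members, their roles and all gene lists were chosen with earlier results of these data known. Library values are given for Mki67, Cdk1, Top2a and Ccnb2, for the 2 members of each role with the smallest fetal liver p (1 for roles of under 4 members), for members called in the difference between sources and for the 2 members with the largest fetal liver p. Of other mitotic genes and regulators, up to 3 called in each direction were named. Other genes were named after their values were seen. Gene positions and exon lengths come from GENCODE on GRCm38, and promoters from RefSeq on GRCm38.p6.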

Additional observations from a re-analysis of the deposited data

Results flagged for a closer look

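The effect of ETV6-RUNX1 differed between fetal liver and bone marrow for 3 of the 50 genes (limma test of the difference itself, 3 libraries a group). Of all tested genes, 3.62% were called in that direction, so the count is near the background. With edgeR the count was 1, beside 2.05% of all tested genes. The fetal liver effect minus the bone marrow effect was -0.97 on the log2 scale for Cdc20, -0.81 for Cdca3 and -0.77 for Ube2c. In fetal liver all 3 genes fell, and in bone marrow none of the 3 passed limma's threshold. Over the alternatives the value lay between -1.10 and -0.83 for Cdc20, between -0.94 and -0.73 for Cdca3 and between -0.91 and -0.64 for Ube2c. Cdc20 passed under all 21 alternatives, Cdca3 under 12 and Ube2c under 8.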

How the results depend on the processing

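The count of members that fell in fetal liver ran from 24 to 38 over 22 alternatives, each within 1.5 times the 34 reported, and all 50 members together gave 0 rises under limma, edgeR and DESeq2 there. Over the same alternatives 7.76% to 26.2% of all tested genes were called lower in fetal liver. The count in bone marrow (13) was 31 with median-of-ratios scaling, 20 with quantile normalization, 31 with edgeR, 34 with DESeq2, 5 with only the 6 libraries compared, and 3 to 22 when each library was left out. The shares of all tested genes called lower were, in that order, 9.20%, 9.28%, 9.49%, 11.1%, 2.18% and 2.24% to 5.23%. The count for the difference between sources (3) was 5 with quantile normalization, 1 with all genes with reads, 1 with edgeR, and 1 to 5 with a library left out. Beside these, 4.18%, 0.833%, 2.05% and 1.42% to 7.18% of all tested genes were called lower. For fetal liver against bone marrow in WT, the count of lower members (2) was 1 with median-of-ratios scaling, 0 with all genes with reads, 1 with edgeR and 5 with the exon length trend removed, and 0 to 14 with a library left out, with 0 to 1 higher. In ETV6-RUNX1 that count (23) was 8 with median-of-ratios scaling, 15 with all genes with reads, 8 with edgeR, 9 with DESeq2 and 10 to 27 with a library left out. The shares of all tested genes were 10.4%, 7.32%, 9.56%, 11.6% and 11.5% to 20.9%. The cause of these changes was not tested.

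Some values near 0 changed sign. In fetal liver Ckap5 (-0.01) ran from -0.10 to 0.17 with a library left out, at 0.021 without WT fetal liver replicate 1 and 0.17 when ETV6-RUNX1 fetal liver replicate 3 was dropped. Smc4 there (0.00) was -0.0745 with median-of-ratios scaling, -0.00812 with quantile normalization, -0.11 with edgeR, -0.0857 with DESeq2 and -0.0832 with the length trend removed, and -0.14 to 0.094 with a library left out. In bone marrow Cdc20 (0.08) was -0.060 with median-of-ratios scaling, -0.0158 with quantile normalization, -0.0537 with edgeR, -0.0439 with DESeq2 and -0.0122 to 0.21 with a library left out. Ect2 there was -0.0343 to 0.52 with a library left out, and Smc4 was -0.00618 with edgeR. The cause of these changes was not tested.

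Groups share replicate numbers, and the labels do not give a pairing. Deviations of samples with the same number had correlations of 0.16, -0.08 and 0.22 in fetal liver and -0.31, 0.12 and -0.40 in bone marrow. With 3 libraries a group these values cannot settle whether the numbers pair the samples. With a replicate block 33 members fell in fetal liver and 11 in bone marrow, beside 17.3% and 3.96% of all tested genes. The difference between sources then passed for 2 members, beside 2.52% of all tested genes called lower. Fetal liver was lower than bone marrow for 1 member in WT and 19 in ETV6-RUNX1. Of all tested genes, 7.0002% and 16.4% were called lower in these comparisons. Every member lay above the floor of 3 reads (0.0465 to 0.0928 CPM) in every library, and with 3 libraries a group small differences could not be shown.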
